A study of Homo sapiens with 24 samples.

Results

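The BCL2 family decides at the outer mitochondrial membrane whether a cell under stress lives or dies. Of its genes 10 were followed here, chosen by symbol: the guardians BCL2, BCL2L1, BCL2L2 and MCL1, the BH3-only genes BCL2L11, BBC3, PMAIP1 and BID, and the pore formers BAX and BAK1. All 10 were found in the deposited 48 h table of 61541 genes and in the 72 h table of 19836 genes, and all 10 passed the filter on low values in both. The RNA came from U2932, a cell line from a human diffuse large B-cell lymphoma whose tissue entry is bone marrow, and the question was how transcripts change after nucleic acid reagents aimed at MYC. Control cells had PBS and are listed as wild type. The PNA2 group had a gamma peptide nucleic acid (a DNA analogue with a peptide-like backbone) at a labelled dose of 8 mM, a unit that is in doubt, and the siRNA group had an siRNA at 500 nM brought in by electroporation, both listed as MYC knockdown.

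At 48 h there were 6 control, 4 PNA2 and 4 siRNA libraries, and at 72 h 5 control and 5 PNA2 libraries. The labels name no electroporated control, so siRNA and electroporation cannot be told apart, and the extraction text names 48 h for every library. For the 4 siRNA libraries the labels enter line names that differ from U2932 in the last digit, beside a treatment text that gives U2932. Nothing says that replicates were separate cultures, so p-values measure only the spread between these libraries, which may be technical. These are bulk samples, in which fewer cells of a kind and less RNA per cell cannot be told apart.

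Guardians hold the pore formers in check and keep the membrane closed. BH3-only proteins are the stress sensors: they bind guardians, and some also switch on BAX and BAK1 directly, after which cytochrome c leaks out and caspases are activated. In B-cell lymphoma BCL2 and MCL1 are well known survival genes, and BCL2 is the target of venetoclax. BCL2L11 encodes BIM, BBC3 encodes PUMA, PMAIP1 encodes NOXA, which binds MCL1 above all, and BCL2L1 encodes BCL-xL.

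MYC, the intended target, was read first. At 48 h its scaled values were 5348 to 7721 in controls, 7198 to 8997 in the libraries labelled PNA2 and 3576 to 4159 in siRNA, which gave a log2 change of 0.24 for PNA2 (limma adjusted p = 0.114) and -0.82 for siRNA (limma adjusted p = 0.000396). At 72 h MYC ran from 826.4 to 2845 normalized counts in controls and from 459.9 to 2032 in PNA2, with a log2 change of -0.18 (limma adjusted p = 0.794). Thus the libraries labelled PNA2 were not called lower in MYC at either time. At 72 h the spread was wide, and leaving out single libraries moved the change from -0.43 to 0.237. The 72 h test therefore cannot decide whether MYC fell. At 48 h 3 of 21 alternative settings called MYC higher with PNA2. Among them was the fit without PNA2 replicate 2 (0.288, limma adjusted p = 0.0433). The 48 h table fell into batch A (9 libraries: 3 controls, 2 PNA2 and all 4 siRNA) and batch B (5 libraries: 3 controls and 2 PNA2), which the labels do not name. Totals per library ran from 11.12 M to 16.17 M adjusted counts at 48 h and from 8.22 M to 13.69 M reads at 72 h. All 8 B-cell markers listed were present in every group, with sums of 37965 to 41408 in controls, 28266 to 46087 in PNA2 and 45019 to 47491 in siRNA at 48 h, and 22604 to 24506 in controls and 27118 to 31674 in PNA2 at 72 h. Of 7 T and NK markers 5 were under 1 in every group, among them CD3D, and their sum was 1.09 to 23.1 in controls and 15.58 to 71.46 in PNA2 at 48 h, led by CD8A. At 72 h that sum was 8.63 to 33.4 and 27.89 to 50.99. The sum of 7 myeloid markers was 7.58 to 23.26 over the 48 h groups, and 14.38 to 45.02 in controls and 19.26 to 30.05 in PNA2 at 72 h, led by CD14, with MPO under 1. Erythroid and megakaryocyte markers summed to at most 7.01. The sum of 8 stroma and epithelium markers was 1817 to 2502 in controls and 2988 to 4266 in PNA2 at 48 h, and 1268 to 1677 and 1471 to 2259 at 72 h, mostly VIM, with KRT8 under 1. Mitochondrially encoded transcripts were 1.54% to 3.21% of control, 4.93% to 6.21% of PNA2 and 2.08% to 2.37% of siRNA values at 48 h, and 3.96% to 4.63% of control and 6.15% to 8.30% of PNA2 values at 72 h. The part of these markers and transcripts in the results on PNA2 was not tested.

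Stretches upstream of 3 members whose start regions hold a motif searched are shown. BID also holds a match and is not shown. The motifs are CACGTG, the E-box that MYC binds with MAX, and GTAAACA, a motif of FOXO factors. RefSeq start regions on GRCh38.p14 were on hand for 8 of the 10 members, not for MCL1 and BCL2L2. Both strands of the 250 bases before each start were searched, and capitals mark the matches. Bases inside an annotated exon of the gene were left out of the print, which begins at the 5′ end of each window.
BAX, chr19:48954625-48954814, plus strand: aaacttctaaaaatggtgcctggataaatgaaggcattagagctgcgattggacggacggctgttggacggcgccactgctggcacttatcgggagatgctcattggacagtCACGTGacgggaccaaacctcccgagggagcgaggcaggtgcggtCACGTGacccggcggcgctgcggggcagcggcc
BBC3, chr19:47232767-47232917, minus strand: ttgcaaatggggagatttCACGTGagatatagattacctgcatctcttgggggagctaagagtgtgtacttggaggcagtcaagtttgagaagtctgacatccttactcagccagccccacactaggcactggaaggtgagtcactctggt
BCL2L11, chr2:111120664-111120913, plus strand: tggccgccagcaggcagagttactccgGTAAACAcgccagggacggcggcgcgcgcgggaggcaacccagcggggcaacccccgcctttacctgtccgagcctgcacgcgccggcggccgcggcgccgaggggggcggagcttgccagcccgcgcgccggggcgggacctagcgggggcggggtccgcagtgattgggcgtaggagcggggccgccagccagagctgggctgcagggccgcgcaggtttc

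The whole BAX window held 4 E-boxes, which begin 138, 93, 45 and 14 bases before the RefSeq start, and the last 2 of these lie in the exon bases left out above. Of 35116 promoters 5 (0.0142%) held 4 or more. That cut is the BAX count itself, so the share is a description and no chance level. BBC3 had 1 E-box, beginning 232 bases before its start, and BID had 1 in 2 of its 5 start windows. These 2 BID windows overlap and hold the same site. E-boxes occurred in 6.34% of all promoters. The FOXO letters stood 223 bases before the BCL2L11 start and in 2.98% of all promoters. The CRE letters TGACGTCA, found in 1.65% of promoters, were in no window of the 8 members. These matches are descriptions of the letters, not of binding.

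The order of levels in controls was set by per-length values, the scaled value at 48 h or the normalized count at 72 h divided by kilobases of exon. That length joins all annotated exons of a gene, and the transcripts expressed may be shorter. Close ranks, and the family shares below, depend on it. MCL1 was highest at 48 h, with 7340 ± 844.5 per kb (SD, n = 6), above 99.6% of 13943 genes. PMAIP1 followed with 4023 ± 374.3 per kb and BCL2 with 1934 ± 98.95 per kb. A middle tier held BAX at 545.7 ± 44.96, BCL2L1 at 496.3 ± 14.6, BCL2L11 at 423.7 ± 15.89 and BAK1 at 389.9 ± 29.05 per kb. BID had 147.8 ± 13.99 per kb. BBC3, at 38.94 ± 7.037 per kb, and BCL2L2, at 14.45 ± 2.254 per kb, were the lowest, the latter above only 21.6% of genes.

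**Figure D1:**
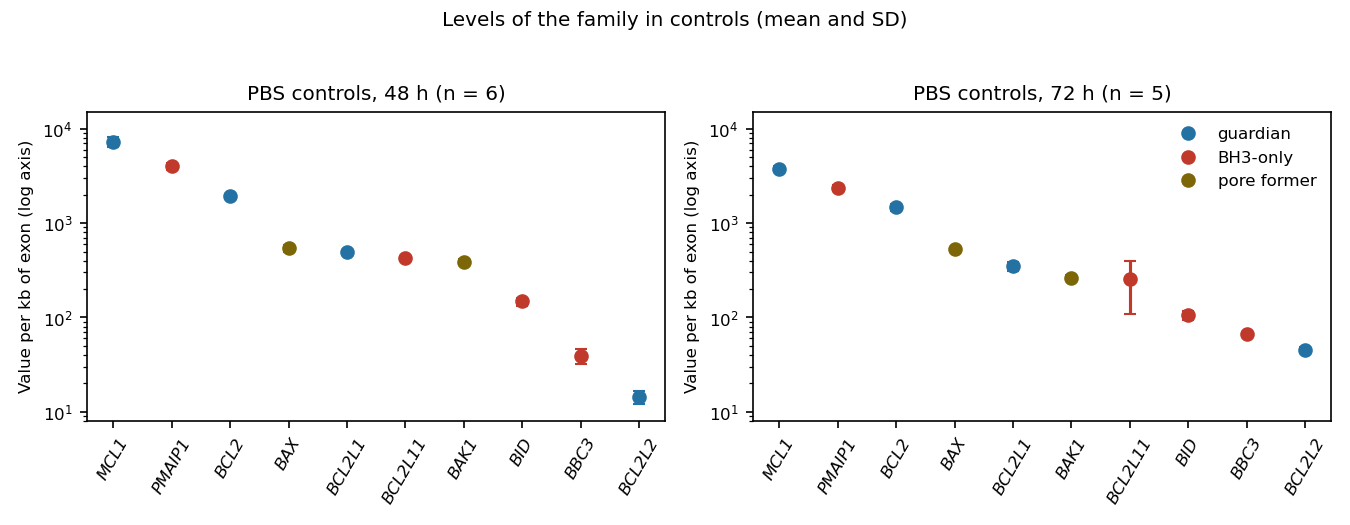
Level of each member in control libraries at 48 h (left, n = 6) and 72 h (right, n = 5), as the value per kilobase of exon on a log axis. Points are means, bars are SD and colours give the role. MCL1, PMAIP1 and BCL2 lead at both times, and the wide bar at 72 h belongs to BCL2L11.

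The same 5 genes led at 72 h, with MCL1 at 3751 ± 270.5, PMAIP1 at 2363 ± 158.8, BCL2 at 1474 ± 134.9, BAX at 526 ± 20.37 and BCL2L1 at 349.9 ± 36.6 per kb (SD, n = 5). BAK1, at 265 ± 17.69 per kb, and BCL2L11, at 252.8 ± 144 per kb, did not differ beyond their spread. BID, BBC3 and BCL2L2 again closed the order. The tables were normalized separately, so levels are not compared between the times.

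PNA2 at 48 h was followed by less BCL2L1 RNA and more BCL2L11, BBC3 and BCL2L2 RNA, while MCL1 stopped just short of the threshold. Of the 10 members 3 were higher and 1 lower (limma, Benjamini-Hochberg adjusted p under 0.05 over 14136 genes). Over all genes 16.2% were called, 8.11% higher and 8.04% lower. Groups did not overlap for 2 members, beside 10.1% of all genes. The members' median log2 change was -0.07, against 0.00 for all genes. The 48 h fit used a spread shared by all groups, though their spreads were unequal. The median SD of log2 values over all genes was 0.23 in PNA2, 0.179 in controls and 0.098 in siRNA. With only controls and PNA2 fitted, 510 genes were called higher and 495 lower, in place of 1147 and 1137.

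**Figure D2:**
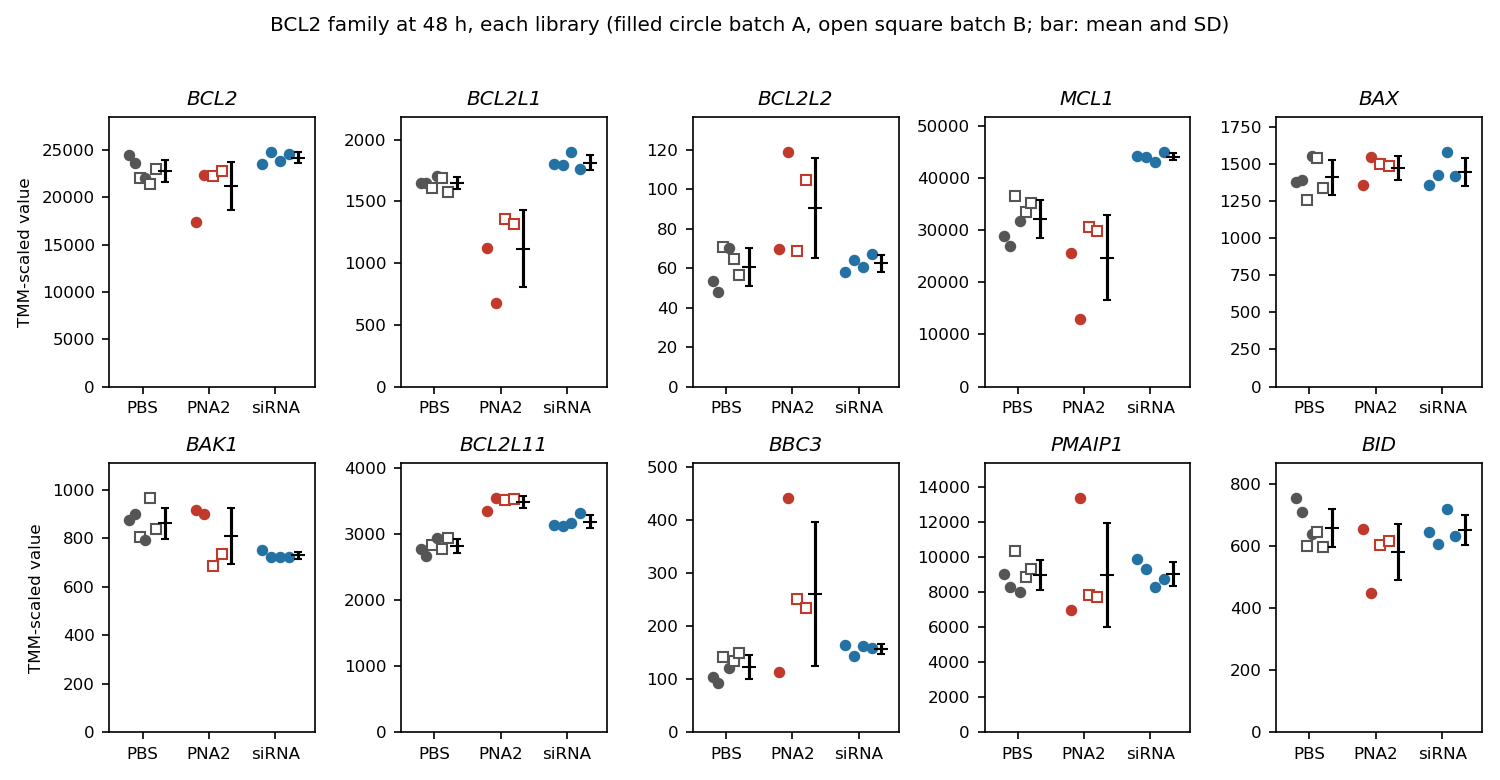
Each library's scaled value at 48 h for the 10 members, by group (6 control, 4 PNA2, 4 siRNA). Filled circles are batch A, open squares batch B, and bars show the mean and SD. PNA2 lies wholly below controls for BCL2L1 and wholly above them for BCL2L11, siRNA lies above both other groups for MCL1, and PNA2 replicate 2 stands apart for MCL1, BCL2L1, BBC3 and PMAIP1.

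BCL2L1, the guardian BCL-xL (GRCh38, chr20:31664452-31723989, minus strand), had scaled values of 1652, 1645, 1604, 1703, 1689 and 1576 in the controls and 1118, 675.2, 1359 and 1318 in PNA2. Every PNA2 library was below every control. PNA2 replicate 2 was the lowest by far. The log2 change was -0.61 (SE 0.128, limma adjusted p = 0.0059), and an exact two-sided permutation test within batches gave p = 0.01, the smallest that its 100 arrangements can give. Without PNA2 replicate 2 it was -0.39 (limma adjusted p = 0.000301). Within batches it was -0.93 in A (limma adjusted p = 0.00939) and -0.28 in B (limma adjusted p = 0.0502). The antisense gene ABALON covers 43.0% of the exon bases of BCL2L1, and the counting is not stated to use strand.

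MCL1, the guardian with the highest level (chr1:150574551-150579738, minus strand), had 28887, 26862, 36457, 31669, 33496 and 35141 in the controls and 25520, 12954, 30577 and 29777 in PNA2. In each batch both PNA2 libraries were below that batch's controls, and over both batches the groups overlapped. The log2 change of -0.45 (SE 0.151, limma adjusted p = 0.055) did not pass. The exact two-sided permutation p within batches was 0.01, again the smallest possible. Replicate 2 set much of the size: without it the change was -0.20 (limma adjusted p = 0.0504), and without replicate 1 it was -0.58 and passed (limma adjusted p = 0.0157). By batch it was -0.67 in A and -0.21 in B.

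BCL2L2, the guardian BCL-w, had 53.36, 47.72, 70.91, 70.01, 64.69 and 56.61 in the controls and 69.66, 118.7, 68.44 and 104.7 in PNA2. PNA2 replicates 2 and 4 were above all controls and the other PNA2 libraries lay among them. The log2 change of 0.54 (SE 0.178, limma adjusted p = 0.0486) passed by a narrow margin. The call was lost without PNA2 replicate 2 (0.36, limma adjusted p = 0.159) and without PNA2 replicate 4 (0.46, limma adjusted p = 0.14). It was also lost without control 1, control 2 or either unnumbered control, with limma adjusted p from 0.0658 to 0.103. Neither batch gave a call on its own (0.69 in A, 0.40 in B). The readthrough gene BCL2L2-PABPN1 shares 19.4% of the exon bases, so reads could be split between them. BCL2 itself, at 21370 to 24501 in controls and 17357 to 22798 in PNA2, had a log2 change of -0.11 with a 95% interval of -0.30 to 0.08.

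BCL2L11, which encodes the BH3-only protein BIM (chr2:111119378-111168447, plus strand), had 2776, 2670, 2838, 2935, 2765 and 2943 in the controls and 3343, 3540, 3519 and 3530 in PNA2. The groups were fully apart, and both had less spread than most genes, with the SD of log2 values at the 1.5 percentile in controls and the 1.4 percentile in PNA2. BCL2L11 rose by 0.31 on the log2 scale (SE 0.054, limma adjusted p = 0.00196), or 1.24-fold. The exact two-sided permutation p within batches was 0.01. The value was 0.31 in batch A and 0.31 in batch B, and 0.29 without PNA2 replicate 2. The opposite-strand gene MIR4435-2HG covers 10.9% of its exon bases.

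BBC3, which encodes the BH3-only protein PUMA (chr19:47220822-47232766, minus strand), had 104, 92.27, 142.4, 120.7, 134.3 and 149.3 in the controls and 114, 441.1, 251.4 and 234.5 in PNA2. PNA2 replicates 2, 3 and 4 were above all controls, and PNA2 replicate 1 was within the control range. The log2 change was 0.93 (SE 0.246, limma adjusted p = 0.0193; exact two-sided permutation p within batches = 0.02). It was 0.52 without PNA2 replicate 2 (limma adjusted p = 0.0119) and up to 1.27 without replicate 1. Batch A gave 1.09 without a call (limma adjusted p = 0.1), and batch B gave 0.77 with a call (limma adjusted p = 0.029). Of 21 alternatives 3 lost the call: batch A alone, only the 2 groups compared, and a replicate block.

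PMAIP1, which encodes NOXA, was 8015 to 10369 in the controls and 7017, 13371, 7829 and 7740 in PNA2. Replicate 2 was above all controls, and the other PNA2 libraries were below all of them. Over all 4 libraries the log2 change was -0.05 (limma adjusted p = 0.853), whereas without replicate 2 it was -0.28 and passed (limma adjusted p = 0.00805). BID, whose protein links death receptors to mitochondria, had a log2 change of -0.19 with a 95% interval of -0.41 to 0.03. The pore formers did not pass either: BAX had 0.06 (95% interval -0.09 to 0.22) and BAK1 -0.10 (95% interval -0.27 to 0.07).

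PNA2 replicate 2 at 48 h was the highest or lowest PNA2 library for 8 of the 10 members, and replicate 1 for 7. Within their own groups, PNA2 replicate 3 and control 4 at 72 h also reached 8, so this count is not particular to replicate 2. The make-up of PNA2 replicate 2 at 48 h stood apart, as the shares of the summed per-kilobase values show. MCL1 made up 23.1% of the family sum in that library, against 47.0% to 48.4% in the other PNA2 libraries and 44.2% to 49.7% in controls. PMAIP1 made up 46.5% there, against 24.2% to 25.3% in the other PNA2 libraries. The ratio of MCL1 to PMAIP1 per kilobase was 0.495 in that library and 1.86 to 2.0 in the other PNA2 libraries, close to the 1.63 to 2.02 of the controls.

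**Figure D3:**
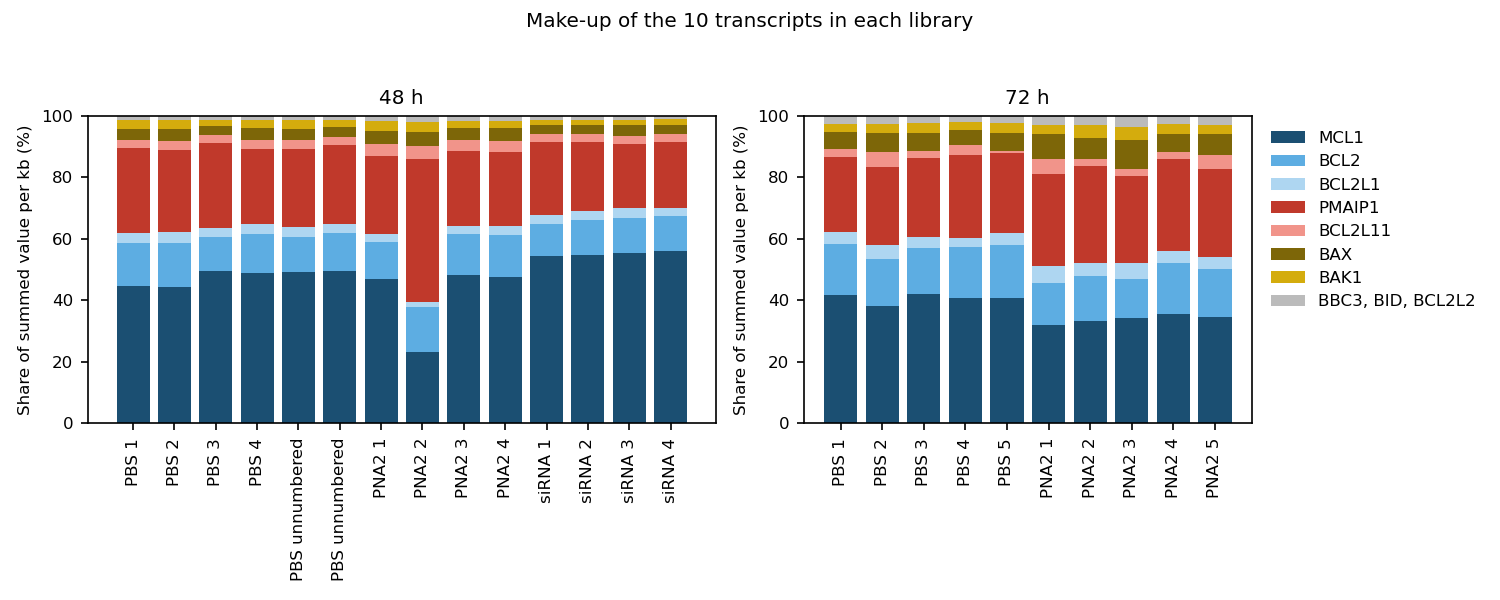
Share of each member in the sum of the 10 per-kilobase values, in percent, for every library at 48 h (left) and 72 h (right). PNA2 replicate 2 at 48 h has the lowest MCL1 share (23.1%), siRNA libraries have 54.3% to 55.9%, and all 5 PNA2 libraries at 72 h (31.9% to 35.4%) are below their controls (38.3% to 42.2%).

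After siRNA the largest change among the members was in MCL1, which rose above every other 48 h library. Of the 10 members 2 were higher and 1 lower (limma, adjusted over 14136 genes), beside 17.2% of all genes, 8.72% higher and 8.52% lower. Groups did not overlap for 4 members, beside 15.5% of all genes. That count sets the siRNA libraries, all in batch A, against controls of both batches, whose levels can differ. For MCL1 the scaled values were 26862 to 31669 in controls of batch A and 33496 to 36457 in those of batch B. The members' median log2 change was 0.10, against -0.01 for all genes. These comparisons use the same controls as those of PNA2. With only controls and siRNA fitted, 2438 genes were called higher and 2129 lower, in place of 1233 and 1204.

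MCL1 had 44276, 43965, 43137 and 44901 in the siRNA libraries, each above the highest control at 36457. The spread was small, with an SD of log2 values at the 2.8 percentile of all genes. MCL1 rose by 0.69 (SE 0.168, limma adjusted p = 0.0115), or 1.62-fold. Within batch A, which holds all siRNA libraries, it rose by 0.63 (limma adjusted p = 0.0464), and the exact two-sided permutation p there was 0.0286, the smallest that 35 arrangements can give. The call was lost without a batch term (0.47, limma adjusted p = 0.124) and with a replicate block.

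BCL2L11 had 3133, 3119, 3166 and 3323 in the siRNA libraries, all above the highest control and all below every PNA2 library. It rose by 0.19 (SE 0.060, limma adjusted p = 0.0377). That call was lost when any 1 siRNA library, control 1 or control 2 was left out, with changes of 0.17 to 0.21 and limma adjusted p from 0.0606 to 0.119. Batch A alone gave 0.22 (limma adjusted p = 0.0465).

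BAK1, a pore former, had 753.1, 723.7, 721.6 and 721.4 in the siRNA libraries, all below the lowest control at 794.2. It fell by 0.30 (SE 0.089, limma adjusted p = 0.0294). The call was lost without any 1 siRNA library, control 1 or control 2 (limma adjusted p from 0.0558 to 0.0917) and in batch A alone (-0.20, limma adjusted p = 0.0681). Without rescaling of the libraries the change was -0.07, in a setting that put the median of all genes at 0.219 in place of -0.01.

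The other guardians did not pass after siRNA. BCL2L1 had 1803, 1793, 1897 and 1758, all above the highest control at 1703. Its log2 change was 0.25 (SE 0.143, limma adjusted p = 0.239), and in batch A the exact two-sided permutation p was 0.0286, the smallest possible. BCL2 changed by 0.10 (95% interval -0.11 to 0.32) and BCL2L2 by 0.09 (95% interval -0.33 to 0.51). Among BH3-only genes BBC3 had 164.4, 143, 162.8 and 159, higher than all 3 controls of batch A but overlapping those of batch B, with a log2 change of 0.51 (limma adjusted p = 0.214). PMAIP1 was at 0.00 (95% interval -0.33 to 0.34) and BID at -0.04 (95% interval -0.28 to 0.20). BAX was at 0.02 (95% interval -0.15 to 0.20).

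Set against each other at 48 h, siRNA and PNA2 differed in 2 guardians. MCL1 was 2.2-fold higher with siRNA (log2 difference 1.14, SE 0.181, limma adjusted p = 0.000441) and BCL2L1 1.82-fold higher (0.86, SE 0.154, limma adjusted p = 0.00103). Over all genes 23.5% were called, 11.5% with siRNA higher and 12.0% lower. Both calls held without PNA2 replicate 2, where MCL1 differed by 0.80 (limma adjusted p = 3.05e-06) and BCL2L1 by 0.56 (limma adjusted p = 3.75e-05). In batch A, with 4 siRNA and 2 PNA2 libraries, the differences were 1.30 and 1.09, and an exact two-sided permutation test there cannot go below p = 0.0667.

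No member was called lower with siRNA by limma, with 1 lower at an unadjusted p under 0.05, BCL2L2 at -0.46. Leaving out PNA2 replicate 1 made it 1 called, BBC3 at -0.86 (limma adjusted p = 0.0168), whereas without replicate 2 BBC3 was at 0.16. PMAIP1 differed by 0.05, and by 0.38 without PNA2 replicate 2, which passed (limma adjusted p = 0.00255). BCL2L11 differed by -0.11 (95% interval -0.25 to 0.02). The groups did not overlap for 5 members (27.5% of all genes), BCL2L11 and the 4 guardians, with PNA2 libraries of both batches counted. The guardians did not move as a class: siRNA was above PNA2 for BCL2, BCL2L1 and MCL1 and below it for BCL2L2. Neither BCL2 (limma adjusted p = 0.172) nor BCL2L2 (limma adjusted p = 0.137) was called. The agents also differed in dose and delivery.

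**Figure D4:**
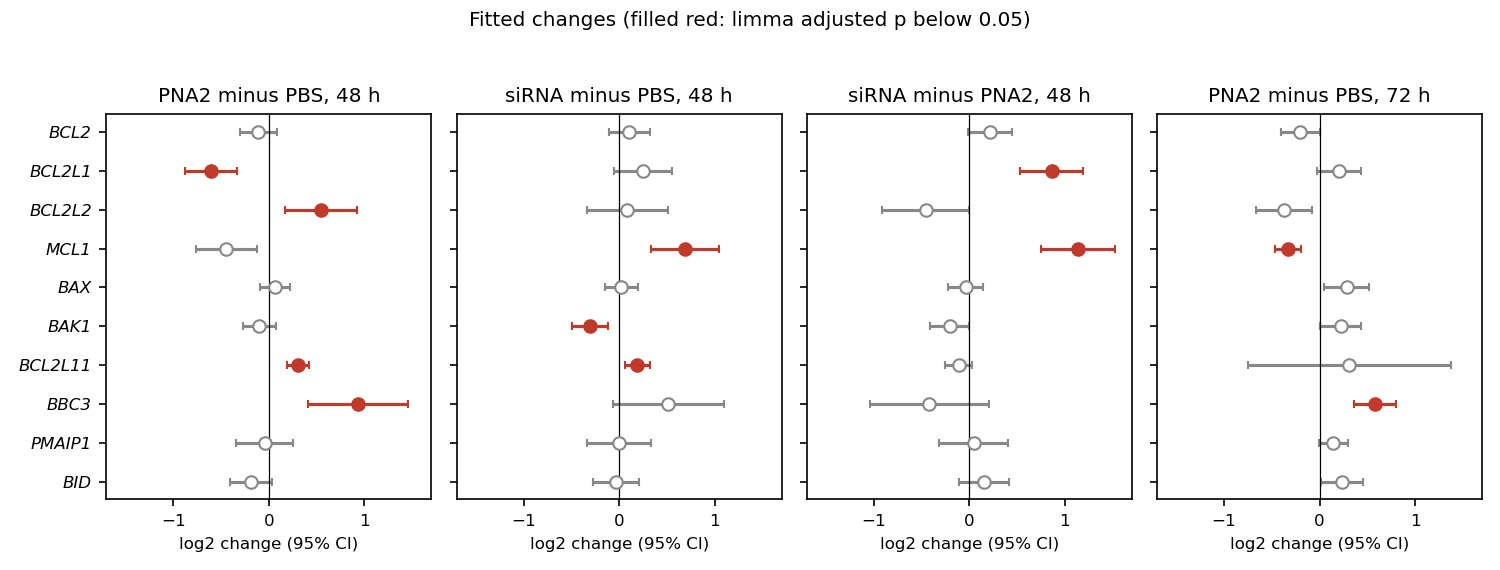
Fitted log2 change of each member in the 4 comparisons (x axis), with 95% confidence intervals. Filled red points have a limma adjusted p below 0.05. BCL2L1 and MCL1 point in opposite directions after PNA2 and siRNA at 48 h, BBC3 is to the right of 0 after PNA2 at both times, and the BCL2L11 interval at 72 h is the widest.

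At 72 h PNA2 was followed by less MCL1 and more BBC3 RNA. These were the only members called, 1 higher and 1 lower (limma, adjusted over 11985 genes), where 23.8% of all genes were called, 12.1% higher and 11.7% lower. The same members were the only ones whose groups did not overlap, beside 19.2% of all genes. The members' median log2 change was 0.21, against -0.01 for all genes.

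**Figure D5:**
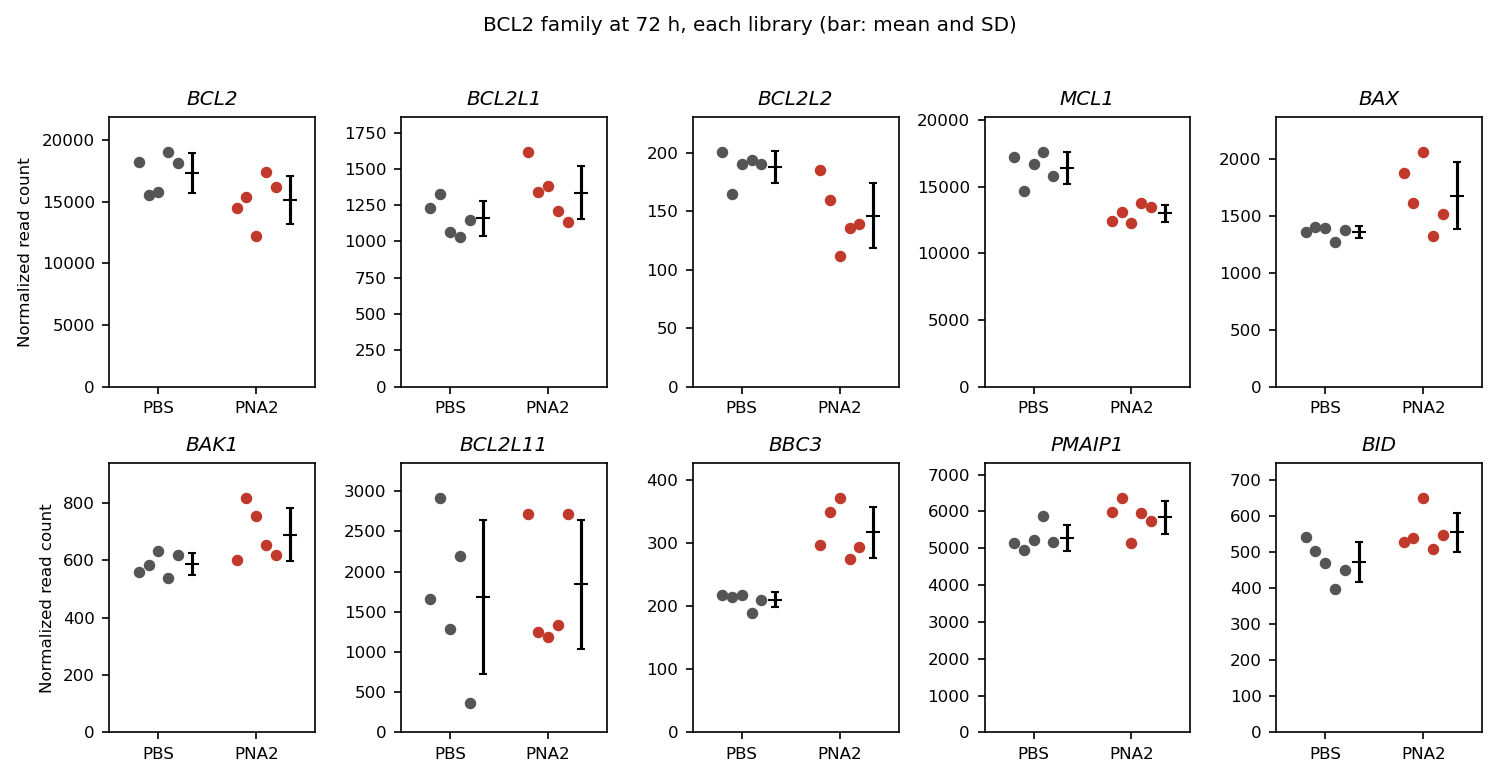
Each library's normalized count at 72 h for the 10 members in 5 control and 5 PNA2 libraries, with bars for the mean and SD. All PNA2 libraries are below all controls for MCL1 and above them for BBC3, while BCL2L11 runs from 364 to 2913 within the controls.

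MCL1 had normalized counts of 17249, 14672, 16716, 17574 and 15761 in the controls and 12439, 13129, 12288, 13776 and 13436 in PNA2. The lowest control was above the highest PNA2 library. MCL1 fell by 0.33 on the log2 scale (SE 0.062, limma adjusted p = 0.00397). The exact two-sided permutation p was 0.00794, the smallest that 252 arrangements allow. At 10707 to 19845 reads per library, counting error was small. The call held under all 16 alternatives, with changes of -0.37 to -0.31.

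BBC3 had 218.4, 215.1, 218.2, 189.8 and 209.8 in the controls and 296.4, 348.5, 371, 275.1 and 293.4 in PNA2. Every PNA2 library was above every control. BBC3 rose by 0.58 (SE 0.102, limma adjusted p = 0.00289; exact two-sided permutation p = 0.00794), or 1.5-fold. It kept its call under all 16 alternatives, at 0.52 to 0.63, with 157 to 335 reads per library behind it.

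The MCL1 share of the family sum was 40.7% ± 1.52 (SD, n = 5) in controls and 33.9% ± 1.36 (SD, n = 5) in PNA2 at 72 h. The ratio of MCL1 to PMAIP1 per kilobase was 1.71, 1.51, 1.63, 1.53 and 1.56 in the controls and 1.06, 1.06, 1.22, 1.18 and 1.2 in PNA2, so the groups did not overlap. With siRNA at 48 h the ratio was 2.29, 2.42, 2.66 and 2.62, above all 6 controls. MCL1, called in both of those comparisons, enters each ratio, so these are descriptions and not further tests. All guardians together made up 61.1% ± 1.7 of the sum in 72 h controls and 53.6% ± 1.89 in PNA2, and the BH3-only genes 30.3% ± 1.65 and 35.4% ± 1.42. Most of the guardian fall was in MCL1. The mean shares of BCL2 and BCL2L2 also fell, whereas that of BCL2L1 rose from 3.82% to 4.6%. Most of the BH3-only rise was in PMAIP1 (25.7% to 29.7%), which was not called. In shares of a common sum, less MCL1 alone raises the other shares. The class totals therefore show no shift of either class as a whole.

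BCL2L2 had 200.2, 164.4, 190.4, 193.7 and 190.1 in the controls and 185.3, 159.4, 111.3, 135.6 and 139.2 in PNA2. Only PNA2 replicate 1 lay inside the control range. The log2 change of -0.38 (SE 0.134, limma adjusted p = 0.062; exact two-sided permutation p = 0.0159) did not pass, and it passed without PNA2 replicate 1 (-0.47, limma adjusted p = 0.028). BCL2 had a change of -0.20 (95% interval -0.41 to 0.01) and BCL2L1 one of 0.20 (95% interval -0.03 to 0.43), in the direction opposite to its 48 h value. The change between the times was not tested.

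BCL2L11 at 72 h had 1654, 2913, 1286, 2197 and 364 in the controls and 2723, 1250, 1187, 1332 and 2713 in PNA2. Both groups were scattered, with a 7.99-fold range in the controls. The SD of log2 values there was 1.16, at the 98.1 percentile of 11985 genes, and 0.61 in PNA2, at the 92.2 percentile. The 0.31 change (SE 0.487, limma adjusted p = 0.672) had a 95% interval of -0.75 to 1.38, so a change of the 48 h size was not detectable. Without control 5 it was -0.17.

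BAX had 1362, 1403, 1395, 1271 and 1372 in the controls and 1878, 1611, 2059, 1321 and 1516 in PNA2. All PNA2 libraries but replicate 4 were above all controls. The change of 0.28 (SE 0.108) had a limma adjusted p of 0.0766, an exact two-sided permutation p of 0.0397 and a DESeq2 adjusted p of 0.0436, and it passed in limma without PNA2 replicate 4 (0.37, limma adjusted p = 0.0155). BAK1 was at 0.22 (limma adjusted p = 0.116) and BID at 0.23 (limma adjusted p = 0.109), with 95% intervals just above 0 before adjustment. PMAIP1 was at 0.14 (limma adjusted p = 0.154), and passed without PNA2 replicate 3 (0.19, limma adjusted p = 0.0437).

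Across the 10 libraries at 72 h, the genes most like each member in pattern were found by Pearson correlation over 11984 other genes, as a description with libraries that share their groups. MCL1 was most like ANAPC4 (r = 0.988, Spearman rho = 0.988) and KLHDC10 (r = 0.986, rho = 1.0), and BBC3 most like MYL6 (r = 0.99, rho = 0.988) and BTF3 (r = 0.989, rho = 0.964). BCL2L11 was most like RAB28 (r = 0.965, rho = 0.891) and ECD (r = 0.929, rho = 0.818).

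The pathway around the family was followed through 58 listed genes, of which 53 passed the filter. BCL2L10, BCL2L14, BCL2L15, BOK and TRIM17 did not. After PNA2 at 48 h 6 were higher and 5 lower (limma), beside 8.11% and 8.04% of all genes, with a median log2 change of 0.06, against 0.00 for all genes. FOXO3, a factor known to act on BCL2L11 and BBC3, rose by 0.51 (limma adjusted p = 0.00426), and TP73, a relative of p53, rose by 0.47 (limma adjusted p = 0.0297). CASP9, the caspase activated by the apoptosome, rose by 0.36 (limma adjusted p = 0.0181). BIRC3, an inhibitor of apoptosis protein, fell by 0.87 (limma adjusted p = 0.0335), E2F1 fell by 0.48 (limma adjusted p = 0.0225) and the death receptor gene TNFRSF10A fell by 0.41 (limma adjusted p = 0.0186).

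After siRNA 15 of the 53 were higher and 2 lower (limma), beside 8.72% and 8.52% of all genes. The median was 0.11, against -0.01 for all genes. Of 9 genes of the death receptor arm 5 were among the higher ones: CASP10, FAS, CASP8, RIPK1 and CFLAR. CFLAR is an inhibitor in this arm, so the rise was not of its activators alone. CASP8, RIPK1 and CFLAR are named to complete this count. CASP10, an initiator caspase, rose by 1.26 (limma adjusted p = 0.00302) and the receptor gene FAS by 0.69 (limma adjusted p = 0.00388). TP73 rose by 1.04 (limma adjusted p = 0.000674), BIRC3 by 0.98 (limma adjusted p = 0.0309) and STAT3, a known activator of MCL1, by 0.90 (limma adjusted p = 8.14e-05). BMF, another BH3-only gene, rose by 0.63 (limma adjusted p = 0.0436). The count of 15 was 8 without control 2 or any of siRNA 1, 3 or 4, and 9 without siRNA 2.

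With siRNA set against PNA2, 13 of the 53 were higher and 5 lower (limma), beside 11.5% and 12.0% of all genes. BIRC3 was higher by 1.85 (limma adjusted p = 0.000708), BCL2A1, a further guardian, by 1.19 (limma adjusted p = 0.0203) and STAT3 by 0.97 (limma adjusted p = 1.63e-05). CFLAR, which blocks caspase 8 at the receptor, was higher by 0.91 (limma adjusted p = 0.000171), FAS by 0.87 (limma adjusted p = 0.000676) and CASP10 by 0.81 (limma adjusted p = 0.0317).

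At 72 h 9 of the 53 pathway genes were higher and 1 lower with PNA2 (limma), where 12.1% of all genes were higher and 11.7% lower. Their share called was thus no larger than that of all genes (23.8%). The median was 0.11, against -0.01 for all genes. Of the 9 tested in the rest of the BCL2 family 4 rose: BAD by 0.72 (limma adjusted p = 0.00678) BIK by 0.54 (limma adjusted p = 0.00144), BMF by 0.26 (limma adjusted p = 0.00804) and BNIP3 by 0.30 (limma adjusted p = 0.0278). BMF and BNIP3 are named to complete this count. CASP9 rose by 0.36 (limma adjusted p = 0.0257), ATF4, the factor of the integrated stress response, by 0.35 (limma adjusted p = 0.00577) and FADD, the adaptor of death receptors, by 0.31 (limma adjusted p = 0.015). DNM1L, the dynamin of mitochondrial fission, fell by 0.79 (limma adjusted p = 0.0243).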

How the data were processed

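RNA-seq libraries of U2932 cells were compared between PBS controls, PNA2 and siRNA. The submitters' processing notes name the build GRCh38 and the tools HISAT2 2.2.1, HTSeq 0.11.0, SAMtools 1.7, DESeq2 and Trimmomatic. Whether counting used strand is not given in the sources used here. The 48 h table holds other values, which are below 0 in 5099 genes. From their form they were taken as read counts adjusted by gene and batch and not divided by depth. Batches A and B were read from tied values (21.7% to 35.9% of 8343 low genes tied within a batch, 0% between). The 72 h table holds deposited signal, counts that the authors divided by a size factor per library, and undoing the division returned whole reads for 100% of values (tolerance 0.01). Duplicate control headers at 48 h left 2 controls unnumbered.

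At 48 h, values below 0 were set to 0 and divided by a TMM library scale (edgeR 4.0.16), giving the scaled values. With limma 3.58.1 (R 4.3.3, trend on) a model was fitted to log2 of the value plus 1, with group and batch at 48 h and group alone at 72 h, so fold changes are on that scale and understate changes of low genes. The filter kept genes that reached 10 in 4 libraries at 48 h or 5 at 72 h. Two-sided p-values were adjusted after Benjamini and Hochberg across the genes tested, and 0.05 was the threshold. Exact permutation tests over libraries were a second test for single members, 40 in all and not adjusted. The fit was tested on simulated data. Gene positions, exon lengths and overlaps came from GENCODE 29, and start regions from RefSeq.

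All members are named, and of the 58 pathway genes those called, up to the 6 with the largest change in a comparison. The members and lists were chosen with earlier results of these data known. Alternatives were no filter, another pseudocount of 10, a median-of-ratios scale, no rescaling, no batch term, single batches, batches aligned on their controls, fits of only 2 groups, a replicate block, leaving out each library, and at 72 h edgeR's quasi-likelihood test, TMM log2 CPM and DESeq2 1.42.0 on recovered reads.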

Additional observations from a re-analysis of the deposited data

Results flagged for a closer look

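In 50 groups of 4 to 6 libraries 1 library can stand far from the rest by chance in about 1 of 20. At 48 h BCL2 in PNA2 replicate 1 was 17357 scaled, against 22295 to 22798 in the other PNA2 libraries, and BCL2L11 in the same library was 3343, against 3519 to 3540. PMAIP1 in PNA2 replicate 2 was 13371, against 7017 to 7829. BAK1 in siRNA replicate 1 was 753.1, against 721.4 to 723.7. At 72 h BCL2L2 in control 2 was 164.4 normalized counts, against 190.1 to 200.2 in the other controls, and BBC3 in control 4 was 189.8, against 209.8 to 218.4.

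For BCL2L1 and MCL1 at 48 h, every PNA2 library was below the mean of its batch's controls and every siRNA library above it. The test of siRNA against PNA2 gave a log2 difference of 0.86 for BCL2L1 (limma adjusted p = 0.00103) and 1.14 for MCL1 (limma adjusted p = 0.000441). Both were flagged for this separation in the same libraries, so the test is no further support. Against controls, BCL2L1 after siRNA (limma adjusted p = 0.239) and MCL1 after PNA2 (limma adjusted p = 0.055) were not called. BCL2L2 with PNA2 was above the mean of its batch's controls in all 4 libraries at 48 h, by a mean of 0.54 on the log2 scale, and below the control mean in all 5 at 72 h, by a mean of -0.38, though the groups overlapped at both times. The difference between the times was not tested, and the tables were normalized separately.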

How the results depend on the processing

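Over 40 pairs of member and comparison, 750 values under alternatives kept direction and side of the threshold in 664, lost a call in 40, gained one in 13 and changed sign in 33. BCL2L11 after PNA2 at 48 h, MCL1 and BBC3 at 72 h, and MCL1 and BCL2L1 between siRNA and PNA2 kept their calls under every alternative run. Where a count below moved, the cause was not tested.

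After PNA2 at 48 h the 3 members called higher were 1 in batch A alone, 1 with only the 2 groups compared and 2 to 3 without single libraries. The 1 called lower was 0 in batch B alone and without batch term and rescaling, and 1 to 2 without single libraries. The 6 pathway genes called higher were 10 not rescaled, with or without a batch term, 3 in batch B alone, 3 with 2 groups, and 4 to 8 without single libraries. The 5 called lower were 3 with no filter, 1 not rescaled, 0 with neither batch term nor rescaling, 8 in batch A alone, 1 in batch B alone, 0 with 2 groups, and 2 to 7 without single libraries (2 without control 1 or 2). Without rescaling the median of all genes was 0.194 for PNA2 and 0.219 for siRNA, against 0.00 and -0.01, and 2014 genes were higher and 167 lower for PNA2 and 2124 and 74 for siRNA, in place of 1147 and 1137, and 1233 and 1204.

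After siRNA the 2 members called higher were 1 with no filter, 1 with no batch term, 4 with 2 groups, and 1 to 2 without single libraries. The 1 called lower was 0 with no filter, not rescaled, with no batch term, with neither, in batch A alone and with batches aligned, and 0 to 1 without single libraries. The 15 pathway genes called higher were 8 with no batch term, 23 with 2 groups, and 8 to 15 without single libraries. The 2 called lower were 1 with no filter, 0 not rescaled, 1 with no batch term, 0 with neither, 1 in batch A alone, 1 with batches aligned, 6 with 2 groups, and 1 to 2 without single libraries.

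Between siRNA and PNA2 the 0 members called lower were 1 in batch A alone, 1 with 2 groups, and 0 to 1 without single libraries. The 13 pathway genes called higher were 8 with neither batch term nor rescaling, and the 5 lower were 1 not rescaled and 0 with neither. At 72 h the 1 member called higher was 2 by DESeq2 (BAX joined) and 1 to 2 without single libraries, and the 1 called lower was 1 to 2. The 9 pathway genes called higher were 15 by DESeq2. The 1 called lower was 2 by TMM log2 CPM, 2 by edgeR, 5 by DESeq2, and 0 to 4 without single libraries.

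Sign changes fell on members with no call and, at 72 h, on MYC. After PNA2 at 48 h, not rescaled and with or without a batch term, BCL2 was 0.089, PMAIP1 0.153, BID 0.01 and BAK1 0.098. BCL2 was 0.028 in batch B alone, and in batch A alone PMAIP1 was 0.202 and BAK1 0.092. Leaving out single libraries moved PMAIP1 from -0.28 to 0.077, with 0.005 without control 3, 0.008 without PNA2 3 and 0.014 without PNA2 4. After siRNA BID was 0.198 not rescaled and 0.015 with batches aligned, and without single libraries PMAIP1 ran from -0.042 to 0.043 (-0.022, -0.029 and -0.012 without control 2, control 4 and siRNA 2), BID from -0.086 to 0.053 (0.019 without control 2) and BAX from -0.02 to 0.105. Between siRNA and PNA2, PMAIP1 was -0.073 in batch A alone and -0.072 with 2 groups, and BAX 0.021 in both. Without single libraries there, BBC3 ran from -0.862 to 0.157, PMAIP1 from -0.098 to 0.376 and BID from -0.053 to 0.267. At 72 h BCL2L11 ran from -0.168 to 0.581 and MYC from -0.43 to 0.237.

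Deviations of same-numbered libraries from their group means correlated at -0.044 to 0.108 at 72 h and -0.065 to 0.297 at 48 h. Batch was not taken out at 48 h, and differently numbered libraries were not compared. These values therefore cannot settle whether replicate numbers pair the libraries. With a replicate block after PNA2 at 48 h, 1 member was called higher, and 2 pathway genes were higher and 3 lower. For siRNA 0 members were higher and 0 lower, and 7 pathway genes were higher and 1 lower. Between siRNA and PNA2 the block gave 3 pathway genes lower, and at 72 h it gave 2 lower.

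Depth limits BCL2L2 and BBC3 most. At 72 h they rest on 99 to 226 and 157 to 335 reads per library. At 48 h their reads cannot be counted because of the apparent batch adjustment. Where leaving out libraries left few per group, the model's spread came from all groups.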
